A study of Homo sapiens with 17 samples.

Results

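Genes of the S100 family, S100A8, S100A9, S100A12, S100A4, S100A6, S100A10, S100A11 and S100P, were followed in MOLM13 cells through 3 gene knockouts. The genes were chosen by name, with earlier results of these data known, and are 8 of the 58278 gene identifiers counted in each library. MOLM13 is a human line of acute myeloid leukaemia that is positive for MLL-AF9, a fusion oncoprotein, so every group below shares that fusion and a CRISPR-ko treatment. In a first experiment, 3 libraries came from cells in which HOXA9 was targeted (HOXA9_KO), 3 from cells in which SAFB was targeted (SAFB_KO) and 3 from non-targeting controls (NT). In a second experiment, 4 libraries came from cells in which MEIS1 was targeted (MEIS1_KO) and 4 from non-targeting controls of their own (NT_MEIS1ex). HOXA9 and MEIS1 are homeobox transcription factors that MLL fusions keep active, and SAFB is a nuclear protein that binds DNA and RNA. The labels do not say whether a group is a clone or a mixed population, nor whether its libraries came from separate cultures, so p-values measure the spread between these libraries.

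S100 proteins are small proteins with paired EF-hand loops, and most of them bind calcium and act as dimers. S100A8 and S100A9 pair to form calprotectin, which fills the cytosol of neutrophils and monocytes and is made as myeloid cells mature. Outside the cell, S100A8, S100A9 and S100A12 act as danger signals through receptors such as TLR4 and RAGE (gene AGER), while S100A4, S100A6, S100A10 and S100A11 are widespread and bind annexins and the cytoskeleton. S100P was first found in placenta and binds ezrin.

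The depth, in units of 1000000 reads assigned to genes (M), was 36.2 to 42.5 M in HOXA9_KO, 30.7 to 44.4 M in SAFB_KO, 39.9 to 67.8 M in NT, 23.3 to 29.9 M in MEIS1_KO and 26.8 to 33.2 M in NT_MEIS1ex. Levels are CPM, counts per 1000000 reads of the library after TMM scaling within an experiment, so levels set side by side across the experiments were scaled separately. Mitochondrial ribosomal RNA took 31.9 to 35.5% of assigned reads in HOXA9_KO, 24.9 to 27.0% in SAFB_KO and 22.5 to 28.4% in NT, but at most 0.0094% in the MEIS1 experiment. Reads on no annotated feature made up 8.65 to 9.27% of assigned, ambiguous and featureless reads in HOXA9_KO, 10.6 to 12.7% in SAFB_KO and 16.4 to 18.1% in NT, groups that did not overlap, and 7.58 to 9.15% in MEIS1_KO against 6.07 to 8.47% in NT_MEIS1ex. Their part in the S100 changes was not tested. Each targeted gene was lower in its own knockout. HOXA9 averaged 21.4 ± 0.445 CPM in HOXA9_KO and 40.9 ± 0.969 CPM in NT, and SAFB averaged 20.7 ± 1.42 CPM in SAFB_KO and 38.3 ± 4.07 CPM in NT (SD, n = 3 each). MEIS1 averaged 11.2 ± 1.10 CPM in MEIS1_KO and 32.4 ± 0.824 CPM in NT_MEIS1ex (SD, n = 4 each). MEIS1 was also lower in HOXA9_KO, at 16.8 ± 0.816 CPM, and in SAFB_KO, at 39.7 ± 1.72 CPM, against 49.1 ± 1.06 CPM in NT (SD, n = 3 each).

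All but S100P lie on the long arm of chromosome 1, and S100P lies on chromosome 4 (GRCh38). S100A8 spans positions 153390032 to 153391188 on the minus strand, and S100A9 spans 153357854 to 153361027 on the plus strand, so the calprotectin genes are transcribed towards each other with S100A12 (153373706 to 153375649, minus strand) between them. S100A6 (153534599 to 153536244) and S100A4 (153543613 to 153550136) follow on the minus strand. S100A10 (151982915 to 151994390) and S100A11 (152032506 to 152047907) lie further off on the same strand. S100P spans 6693069 to 6697170 on the plus strand of chromosome 4. No exon of the 8 genes overlapped another annotated gene on its own strand, and 2.37% of the S100A6 exon length lay opposite another gene.

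The promoters of the 3 genes with the largest changes in HOXA9_KO and of S100P are shown for comparison. S100P was called lower in MEIS1_KO and was not called in HOXA9_KO or SAFB_KO. Each window runs 5′ to 3′ over 300 bases, 250 before and 50 after the transcript start, from RefSeq on GRCh38.p14, and capitals mark motif matches. The S100A8 window is the second of 3 starts, printed for its match and chosen after the matches were seen (chr1:153391024-153391323, minus strand), and the others are chr1:153357604-153357903 (S100A9, plus strand), chr1:153375572-153375871 (S100A12, minus strand) and chr4:6693628-6693927 (S100P, plus strand).
S100A8: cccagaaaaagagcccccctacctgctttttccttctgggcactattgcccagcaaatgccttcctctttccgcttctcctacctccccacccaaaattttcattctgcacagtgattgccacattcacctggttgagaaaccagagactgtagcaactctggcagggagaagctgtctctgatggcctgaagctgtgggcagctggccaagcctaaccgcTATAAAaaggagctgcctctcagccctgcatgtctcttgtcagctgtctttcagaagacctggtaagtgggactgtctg
S100A9: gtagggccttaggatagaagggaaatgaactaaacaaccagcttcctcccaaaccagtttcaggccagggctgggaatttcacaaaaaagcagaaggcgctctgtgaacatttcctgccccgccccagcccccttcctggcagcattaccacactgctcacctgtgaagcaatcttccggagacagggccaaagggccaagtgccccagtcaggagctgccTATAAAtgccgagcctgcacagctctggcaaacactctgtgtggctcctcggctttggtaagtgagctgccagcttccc
S100A12: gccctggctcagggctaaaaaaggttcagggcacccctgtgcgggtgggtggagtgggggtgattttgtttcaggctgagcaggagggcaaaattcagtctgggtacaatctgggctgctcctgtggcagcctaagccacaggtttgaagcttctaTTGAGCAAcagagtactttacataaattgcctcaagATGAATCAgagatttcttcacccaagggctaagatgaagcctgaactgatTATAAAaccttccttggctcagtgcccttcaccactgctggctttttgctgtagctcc
S100P: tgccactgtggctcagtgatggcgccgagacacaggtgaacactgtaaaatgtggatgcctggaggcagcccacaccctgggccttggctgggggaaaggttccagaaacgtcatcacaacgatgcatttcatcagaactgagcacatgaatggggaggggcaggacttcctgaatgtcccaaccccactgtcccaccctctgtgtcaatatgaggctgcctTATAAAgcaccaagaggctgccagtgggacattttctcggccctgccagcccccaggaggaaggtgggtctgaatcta
A search on both strands used 5 letter patterns, TATAAA for the TATA box, TTGCNNAA for C/EBP factors, TGACAG for MEIS1, TGATTNAT for PBX-HOX pairs and GAGGAAGT for PU.1. TATAAA started 29 bases before the start in S100A8 and S100A9, 28 before it in S100P and 8 before it in S100A12. The first S100A8 window held no match, and in the third the same letters lay at -126. It also lay 31 bases before the start of S100A4, and 11.5% of 35116 RefSeq windows of this length held it. S100A12 held a C/EBP match 94 bases and a PBX-HOX match 58 bases before its start, and S100A11 held a C/EBP match 33 bases before its start. Of all windows, 10.5% held the C/EBP pattern, 2.82% the PBX-HOX pattern, 15.8% the MEIS1 pattern and 2.59% the PU.1 pattern. Neither of the last patterns, TGACAG and GAGGAAGT, occurred in a window of the 8 genes, and S100A6 and S100A10 held no match to any of the 5. No printed match overlapped another, and a match is a description of letters only.

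Per kilobase of exon, S100A4 and S100A11 were the most abundant members in every group. The length was that of all annotated exons of a gene merged, 577 bases for S100A9, 1006 for S100A8 and 1280 for S100P. The order depends on these lengths, and which transcripts were present was not tested. In HOXA9_KO, S100A4 stood at 374 ± 13.5 and S100A11 at 368 ± 10.97 CPM per kilobase, and their libraries overlapped. S100A9 came next at 157 ± 12.9 CPM per kilobase, ahead of S100A6 (129 ± 3.40), S100A8 (45.0 ± 2.16) and S100A10 (33.8 ± 1.79), all without overlap between neighbours (SD, n = 3). At the low end of HOXA9_KO, S100P at 2.40 ± 0.3398 CPM per kilobase overlapped S100A12 at 1.64 ± 0.797. In SAFB_KO, S100A9 ranked below S100A6, at 46.3 ± 1.01 against 80.5 ± 1.57 CPM per kilobase. In NT, S100A9 (9.07 ± 0.897) and S100A8 (3.26 ± 0.170) ranked below S100A10 (25.3 ± 1.69 CPM per kilobase). In MEIS1_KO, S100A11 led at 333 ± 12.4 CPM per kilobase, ahead of S100A4 at 268 ± 8.31. S100P stood at 20.5 ± 1.404 CPM per kilobase in MEIS1_KO, between S100A9 (35.6 ± 2.91) and S100A8 (9.94 ± 0.515). In NT_MEIS1ex it stood at 38.8 ± 8.23 CPM per kilobase, above both S100A9 (17.9 ± 6.09) and S100A8 (4.39 ± 1.38; SD, n = 4). In each group but HOXA9_KO, no neighbours in this order overlapped.

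**Figure D1:**
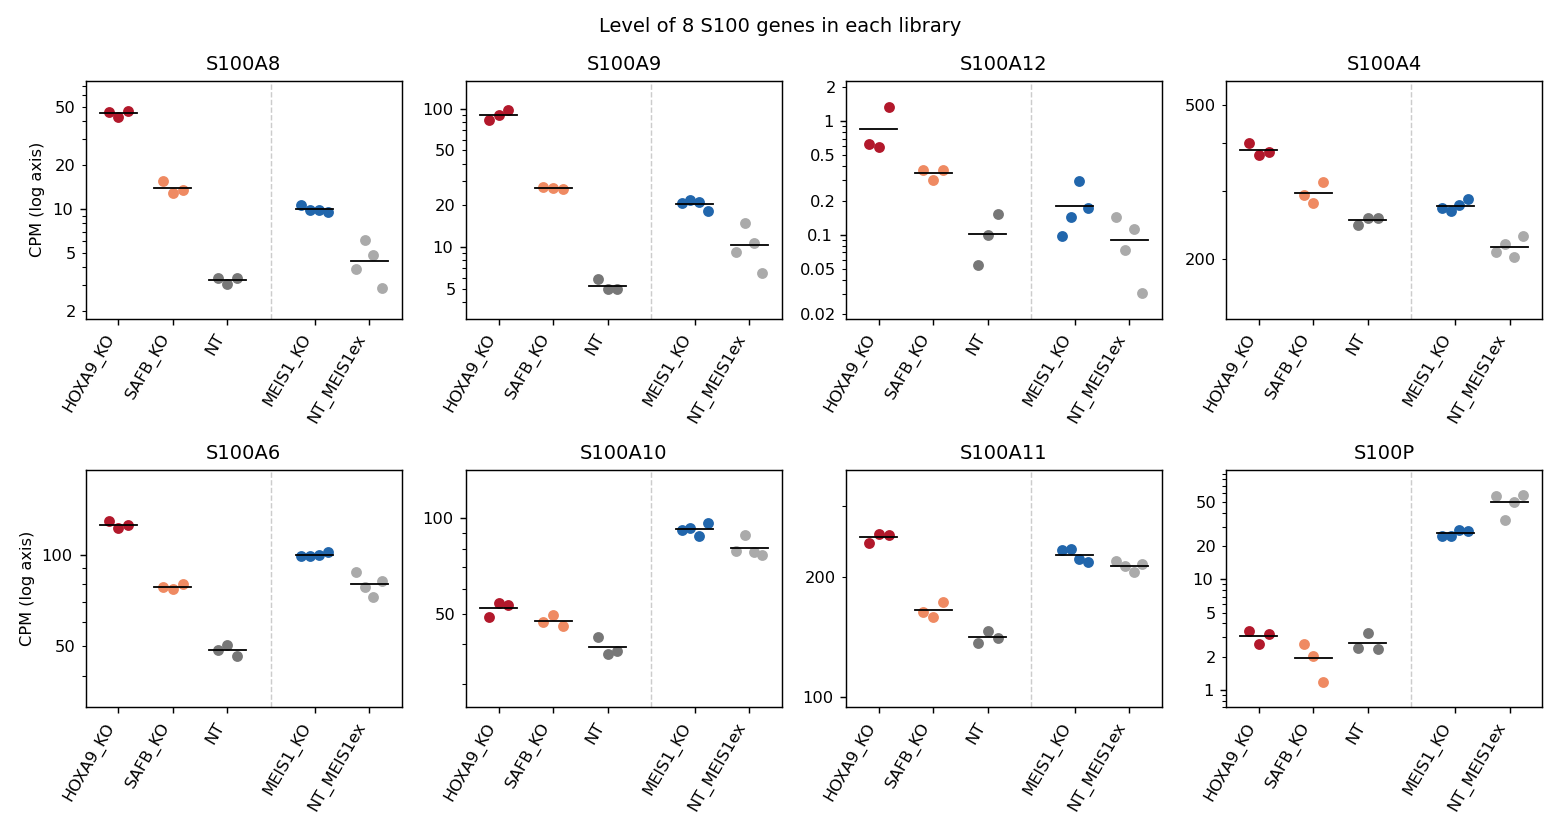
Level in CPM (log axis) of each S100 gene in each of the 17 libraries, with points for libraries and bars for group means; the dashed line parts the experiments, whose CPM were scaled separately. S100A8 and S100A9 were highest in HOXA9_KO (42.8 to 46.8 and 83.0 to 97.9 CPM) and lower in SAFB_KO and NT without overlap, while S100P was lower in MEIS1_KO (24.5 to 28.0 CPM) than in NT_MEIS1ex (34.6 to 57.6 CPM).

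In HOXA9_KO the RNA of 7 of the 8 genes was higher, and the calprotectin genes changed most. S100A8 stood at 46.2, 42.8 and 46.8 CPM in the HOXA9_KO libraries, against 3.38, 3.08 and 3.37 CPM in the NT libraries. S100A9 stood at 83.0, 90.5 and 97.9 CPM in HOXA9_KO, against 5.83, 4.93 and 4.93 CPM in NT. For both genes the groups were far apart and the libraries within a group close together. S100A8 rose by 3.79 ± 0.08 on the log2 scale (SE), a 13.8-fold difference (edgeR adjusted p = 5.9e-39). S100A9 rose by 4.10 ± 0.07, or 17.1-fold (edgeR adjusted p = 1.7e-42). In bulk RNA a larger share of cells with these genes and more RNA per cell cannot be told apart. S100A12, another granulocyte and monocyte member and a ligand of RAGE, was rare, with 19, 19 and 49 reads in HOXA9_KO against 4, 5 and 7 reads in NT. That equalled 0.630, 0.591 and 1.32 CPM in HOXA9_KO against 0.0541, 0.0987 and 0.152 CPM in NT, and HOXA9_KO library 3 stood above the others. Its difference was 3.12 ± 0.50 on the log2 scale, and 2.63 ± 0.60 without that library. It passed the filter on low counts only through the knockout libraries, so no p-value is given against NT.

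The widespread members rose by less in HOXA9_KO. S100A6, known as calcyclin, stood at 129, 122 and 125 CPM in HOXA9_KO against 48.4, 50.2 and 46.4 CPM in NT. S100A11, a partner of annexin A1, stood at 242, 256 and 254 CPM in HOXA9_KO against 136, 146 and 140.2 CPM in NT. S100A4, which binds non-muscle myosin, stood at 399, 373 and 379 CPM in HOXA9_KO against 245, 256 and 254 CPM in NT. In each of these genes every HOXA9_KO library lay above every NT library. The log2 changes were 1.37 ± 0.04 for S100A6, 0.83 ± 0.04 for S100A11 and 0.61 ± 0.04 for S100A4 (edgeR adjusted p at most 1.6e-19). S100A10, which pairs with annexin A2 at membranes, stood at 48.9, 54.0 and 53.4 CPM in HOXA9_KO against 42.0, 37.1 and 38.0 CPM in NT. It rose by 0.41 ± 0.05 (edgeR adjusted p = 1.5e-09), again without overlap. S100P stood at 3.41, 2.58 and 3.22 CPM in HOXA9_KO against 2.41, 3.26 and 2.37 CPM in NT, and the groups overlapped. Its difference of 0.20 ± 0.19 did not pass the test (edgeR adjusted p = 0.365) and was -0.05 when libraries were scaled to nuclear protein-coding reads.

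Changes were common in HOXA9_KO: 27.6% of the 18876 tested genes were called higher and 29.1% had every HOXA9_KO library above every NT library. Against this background, 7 of 8 S100 genes were called higher and the same number were separated. S100A12 passed the filter on low counts only through the knockout libraries, and without it 6 of 7 were called and separated. The split of all calls depended on scaling, with 5207 genes higher and 5640 lower under TMM, but 2847 higher and 9307 lower under scaling to nuclear protein-coding reads. That scaling moved the median of all genes by -0.25, from -0.07 under TMM to -0.32. Relative to the median of -0.32, S100A10, the member with the smallest called rise, stood at 0.48 and S100A9 at 4.17. Without that recentring, the rise of S100A10 was 0.16 ± 0.05 (edgeR adjusted p = 0.00751) and that of S100A4 0.36 ± 0.03 under the nuclear scaling.

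In SAFB_KO the same 7 genes were called higher, each by less than in HOXA9_KO. S100A8 stood at 15.5, 12.9 and 13.4 CPM in SAFB_KO, against the NT values of 3.08 to 3.38 CPM. S100A9 stood at 27.3, 26.7 and 26.1 CPM in SAFB_KO, against 4.93 to 5.83 CPM in NT. Both genes again stood apart from NT in every library. S100A8 rose 4.22-fold (log2 2.08 ± 0.09, edgeR adjusted p = 1.5e-25) and S100A9 rose 5.05-fold (log2 2.34 ± 0.07, edgeR adjusted p = 1.4e-30). S100A12 had 12, 14 and 13 reads in SAFB_KO against 4, 5 and 7 reads in NT, a log2 difference of 1.81 ± 0.55. Without the first NT library that difference was 1.45 ± 0.59 and its call was lost. No p-value is given, for the same reason as in HOXA9_KO.

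Among the widespread members, S100A6 stood at 78.0, 76.7 and 79.8 CPM in SAFB_KO, a log2 rise of 0.69 ± 0.04 over NT. S100A10 stood at 46.9, 49.5 and 45.7 CPM in SAFB_KO and rose by 0.28 ± 0.05 on the log2 scale. S100A4 stood at 293, 279.6 and 315 CPM in SAFB_KO and rose by 0.24 ± 0.04 on the log2 scale. S100A11 stood at 163, 158 and 173 CPM in SAFB_KO and rose by 0.23 ± 0.04 on the log2 scale. All 4 were separated from NT, with edgeR adjusted p at most 2.2e-05. Under scaling to nuclear protein-coding reads the rises of 3 of them were smaller and nearer the threshold, at 0.14 ± 0.05 for S100A10, 0.10 ± 0.03 for S100A4 and 0.09 ± 0.03 for S100A11 (edgeR adjusted p = 0.0357, 0.0176 and 0.0418). S100P stood at 2.58, 2.04 and 1.19 CPM in SAFB_KO, against 2.41, 3.26 and 2.37 CPM in NT. These groups overlapped, and the difference of -0.47 ± 0.19 did not pass (edgeR adjusted p = 0.058) although it passed under 7 of 18 alternatives, the scaling to nuclear protein-coding reads among them (-0.61 ± 0.20, edgeR adjusted p = 0.0146). It was -0.23 ± 0.19 without SAFB_KO library 3 (edgeR adjusted p = 0.407) and -0.31 ± 0.21 without NT library 2 (0.296).

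Of all genes tested in SAFB_KO, 20.2% were called higher and 24.1% had every SAFB_KO library above every NT library, against 7 of 8 S100 genes by either count and 6 of 7 without S100A12. The calls over all genes split into 3812 higher and 2886 lower, or 1711 higher and 5543 lower under scaling to nuclear protein-coding reads, which moved the median by -0.14. The HOXA9_KO and SAFB_KO comparisons share the NT libraries, so their common direction is not independent.

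Set directly against each other, HOXA9_KO stood above SAFB_KO in all 8 genes, a comparison in which 20.1% of all tested genes were called higher. S100A8 was 3.27-fold and S100A9 3.39-fold higher in HOXA9_KO than in SAFB_KO (log2 1.71 ± 0.07 and 1.76 ± 0.06, edgeR adjusted p = 3.2e-26 and 1.5e-29). S100A6, S100A11 and S100A4 were higher in HOXA9_KO by 0.68 ± 0.04, 0.61 ± 0.04 and 0.37 ± 0.04 on the log2 scale, without overlap of libraries. Groups did not overlap in 6 of the 8 genes (5 of 7 without S100A12), against 23.6% of all genes. The calls of S100A12 and of the overlapping S100A10 and S100P were lost under some alternatives. The S100A12 difference was 1.31 ± 0.44 (edgeR adjusted p = 0.0151), but 0.82 ± 0.54 (0.261) without HOXA9_KO library 3 and 1.20 ± 0.51 (0.0607) without the second SAFB_KO library. The S100P difference was 0.67 ± 0.20 (edgeR adjusted p = 0.00661), but 0.44 ± 0.20 (0.0714) without SAFB_KO library 3 and 0.71 ± 0.33 (0.112) in a fit of all 17 libraries. S100A10 differed by 0.14 ± 0.05 (edgeR adjusted p = 0.0308), with the call lost without HOXA9_KO library 2 or 3 (0.134 and 0.123), without SAFB_KO library 1 or 3 (0.0829 and 0.0845), and under scaling to nuclear protein-coding reads (0.02 ± 0.05, 0.757). Over all genes, TMM gave 3791 higher and 3877 lower calls and the nuclear scaling 2437 higher and 5864 lower, with a median shift of -0.11.

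**Figure D2:**
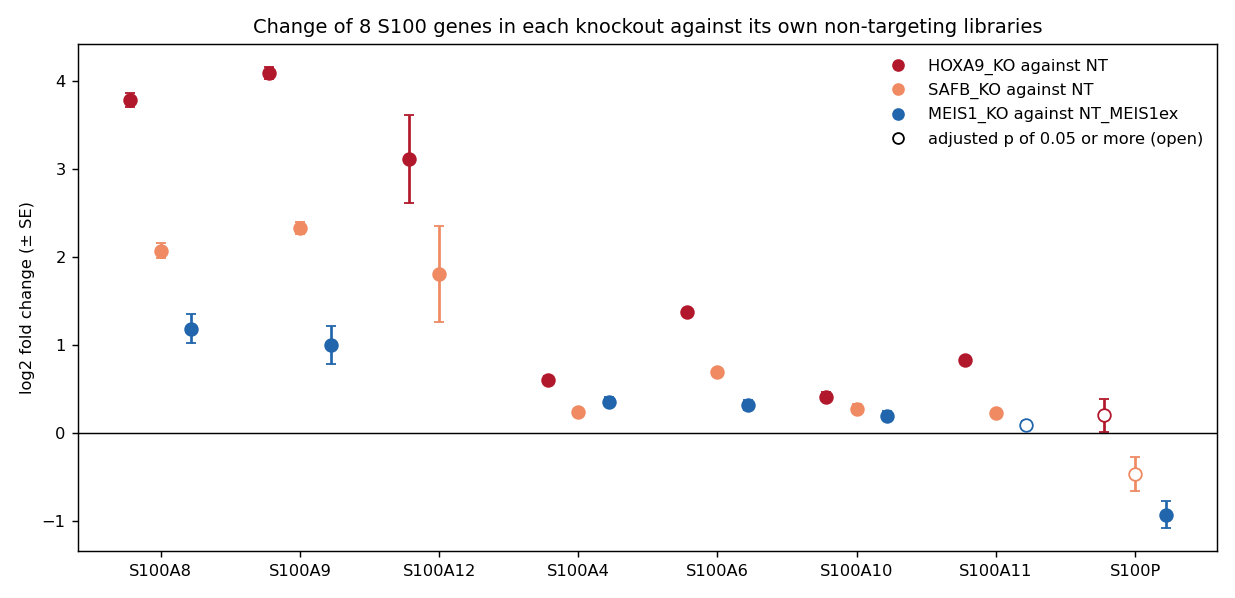
Log2 fold change with its SE for each S100 gene in the 3 knockouts, each against its own non-targeting libraries. Filled points passed an edgeR adjusted p under 0.05. S100A12 entered the test in the first experiment only through the knockout libraries and was not tested in the MEIS1 experiment. S100A9 lay at 4.10 in HOXA9_KO, 2.34 in SAFB_KO and 1.001 in MEIS1_KO. S100P lay below 0 in SAFB_KO, without passing (open point), and in MEIS1_KO, where it passed. Its open point in HOXA9_KO, 0.20, turned to -0.05 under scaling to nuclear protein-coding reads.

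The MEIS1 knockout changed members of the family in both directions. S100A8 stood at 10.7, 9.88, 9.86 and 9.52 CPM in the MEIS1_KO libraries, against 3.89, 6.12, 4.81 and 2.86 CPM in the NT_MEIS1ex libraries. S100A9 stood at 20.7, 22.01, 21.3 and 18.2 CPM in MEIS1_KO, against 9.24, 14.95, 10.6 and 6.53 CPM in NT_MEIS1ex. The groups did not overlap in either gene, but the NT_MEIS1ex libraries were spread more widely than the MEIS1_KO libraries, with the second library highest and the last lowest for both genes. S100A8 rose 2.28-fold (log2 1.19 ± 0.17, edgeR adjusted p = 6.3e-04). S100A9 rose 2.001-fold (log2 1.001 ± 0.22, edgeR adjusted p = 0.029). The S100A9 call was lost with no filter on low counts (0.0634), without MEIS1_KO library 1, 2 or 3 (0.0774, 0.0758 and 0.0835), and without NT_MEIS1ex library 1 or 3 (0.0888 and 0.0682), with log2 changes of 0.96 to 1.02 in those fits. S100A12 had 3, 4, 8 and 4 reads in MEIS1_KO against 4, 2, 3 and 1 reads in NT_MEIS1ex, too few to enter the test.

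S100P, by contrast, was less abundant in MEIS1_KO, at 0.526 of its control level. It stood at 24.8, 24.5, 28.0 and 27.4 CPM in MEIS1_KO, against 56.3, 34.6, 50.02 and 57.6 CPM in NT_MEIS1ex. Every MEIS1_KO library lay below every NT_MEIS1ex library, of which the second was the lowest. S100P fell by 0.93 ± 0.15 on the log2 scale (edgeR adjusted p = 0.00656) and passed under all 16 alternatives. Its mean level was 49.6 ± 10.5 CPM in NT_MEIS1ex (SD, n = 4) and 2.68 ± 0.502 CPM in NT (SD, n = 3), levels that were scaled separately and not tested against each other.

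S100A4 stood at 270.0, 266, 276 and 286 CPM in MEIS1_KO against 207, 218, 202 and 229 CPM in NT_MEIS1ex, a log2 rise of 0.36 ± 0.05 (edgeR adjusted p = 1.8e-04). S100A6 stood at 98.7, 99.1, 99.4 and 102 CPM in MEIS1_KO against 87.4, 78.4, 72.7 and 81.7 CPM in NT_MEIS1ex, a log2 rise of 0.32 ± 0.06 (edgeR adjusted p = 0.00126). Neither gene's groups overlapped. S100A10 stood at 91.9, 93.3, 87.9 and 97.1 CPM in MEIS1_KO against 78.8, 88.6, 78.3 and 76.5 CPM in NT_MEIS1ex, where the second NT_MEIS1ex library overlapped the knockout. Its log2 rise of 0.20 ± 0.06 (edgeR adjusted p = 0.0303) lost its call without MEIS1_KO library 1, 2 or 4 (0.0578, 0.09 and 0.081) and without NT_MEIS1ex library 3 or 4 (0.0918 and 0.105), with log2 changes of 0.17 to 0.20 in those fits. S100A11 stood at 232, 235, 221 and 218 CPM in MEIS1_KO against 218, 212, 205 and 215 CPM in NT_MEIS1ex, and its difference of 0.09 ± 0.05 did not pass (edgeR adjusted p = 0.242). In all, 5 of the 7 tested members were called higher and 1 lower, where 4.97% of the 15744 tested genes were called higher and 3.84% lower. Groups were separated upward in 4 members and downward in 1, where 8.43% and 7.28% of all genes were. Over all genes 783 rose and 604 fell, or 994 and 440 under scaling to nuclear protein-coding reads.

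Whether the knockouts differed in effect was tested in a fit of all 17 libraries, each effect taken against its own non-targeting libraries. MEIS1_KO belonged to the second experiment and the other knockouts to the first, so differences between knockouts and between experiments cannot be told apart. The MEIS1_KO effect was smaller than the HOXA9_KO effect by 2.63 ± 0.19 (log2) for S100A8 and by 3.13 ± 0.25 for S100A9 (edgeR adjusted p = 1.6e-11 and 2.3e-07). The MEIS1_KO effect was the lower for all 8 genes by this test (7 of 7 without S100A12), where 24.5% of 18836 genes were called lower. Under scaling to nuclear protein-coding reads 5 of the 8 were called, and the differences of S100A4 (-0.29 ± 0.07) and S100A10 (-0.26 ± 0.08) turned to 0.03 and 0.07, while that of S100A11 was -0.46 ± 0.06 against -0.78 under TMM. The S100A10 call was also lost with a minimum mean of 2 CPM (-0.16, edgeR adjusted p = 0.103), and the S100A12 call under 7 of 23 alternatives. Against the SAFB_KO effect, the MEIS1_KO effect was lower for S100A8 by 0.89 ± 0.19, for S100A9 by 1.34 ± 0.26 and for S100A6 by 0.38 ± 0.07 (edgeR adjusted p = 0.00139, 0.00257 and 2.9e-04). These 3 of 8 stood against 12.4% of all genes called lower. Under the nuclear scaling the S100A6 difference was -0.21 ± 0.07 (edgeR adjusted p = 0.0302), and S100A4 was called higher at 0.29 ± 0.06 (8.0e-04), as it was with a minimum mean of 2 CPM (0.19 ± 0.06, 0.0308), against 0.11 without a call under TMM. S100P differed by -1.18 ± 0.33 between the MEIS1_KO and HOXA9_KO effects (edgeR adjusted p = 0.0116) and by -0.47 ± 0.35 between the MEIS1_KO and SAFB_KO effects (edgeR adjusted p = 0.386). Calls over all genes were 3703 higher and 4618 lower for MEIS1_KO minus HOXA9_KO (7827 and 1847 under the nuclear scaling, median shift 0.32), and 1600 higher and 2330 lower for MEIS1_KO minus SAFB_KO (3539 and 598, median shift 0.18).

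The family as a whole was more abundant in each knockout, and calprotectin RNA made up more of it. Summed over the 8 genes, S100 RNA reached 951 ± 9.45 CPM in HOXA9_KO and 629 ± 24.3 CPM in SAFB_KO, against 491 ± 8.82 CPM in NT (SD, n = 3 each). It reached 750.3 ± 5.74 CPM in MEIS1_KO against 652 ± 19.7 CPM in NT_MEIS1ex (SD, n = 4 each). S100A8 and S100A9 together supplied 13.6, 14.2 and 15.1% of the family's reads in HOXA9_KO and 6.82, 6.53 and 6.04% in SAFB_KO, against 1.91, 1.60 and 1.70% in NT. They supplied 4.19, 4.25, 4.195 and 3.65% in MEIS1_KO, against 1.986, 3.23, 2.47 and 1.403% in NT_MEIS1ex. No knockout library fell within the range of its own controls. The 95% Wilson interval, which covers counting error only, was 14.7 to 15.4% in HOXA9_KO library 3 and 1.77 to 2.05% in NT library 1, the highest of their groups.

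The balance of the calprotectin partners was read from their ratio, which does not depend on library scaling. The ratio of S100A9 to S100A8 reads was 1.80, 2.11 and 2.09 in HOXA9_KO and 1.76, 2.07 and 1.94 in SAFB_KO, against 1.72, 1.60 and 1.46 in NT. Every ratio in either knockout exceeded every ratio in NT. The mean log2 ratio differed by 0.33 for HOXA9_KO against NT and by 0.27 for SAFB_KO against NT, each with an exact two-sided permutation p = 0.1, the smallest that 3 against 3 libraries allow. In MEIS1_KO the ratio was 1.93, 2.23, 2.16 and 1.91, against 2.37, 2.44, 2.20 and 2.28 in NT_MEIS1ex, where the groups overlapped (log2 difference -0.18, exact permutation p = 0.0571).

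S100A10 was also read against ANXA2, whose protein it binds. The S100A10 to ANXA2 ratio was 0.188, 0.221 and 0.214 in HOXA9_KO and 0.260, 0.274 and 0.248 in SAFB_KO, against 0.289, 0.253 and 0.253 in NT. HOXA9_KO lay below NT in every library (log2 difference -0.35, exact permutation p = 0.1, the smallest possible), while SAFB_KO overlapped NT (-0.02, exact permutation p = 0.8). The ratio was 0.687, 0.669, 0.650 and 0.720 in MEIS1_KO, against 0.804, 0.845, 0.849 and 0.744 in NT_MEIS1ex. Every MEIS1_KO library lay below NT_MEIS1ex, by 0.25 on the log2 scale (exact permutation p = 0.0286, the smallest that 4 against 4 libraries allow). Over the 6 ratio comparisons no p was adjusted, and a single one passed 0.05. ANXA2 itself rose by 0.77 ± 0.03 in HOXA9_KO, by 0.30 ± 0.03 in SAFB_KO and by 0.45 ± 0.05 in MEIS1_KO on the log2 scale.

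**Figure D3:**
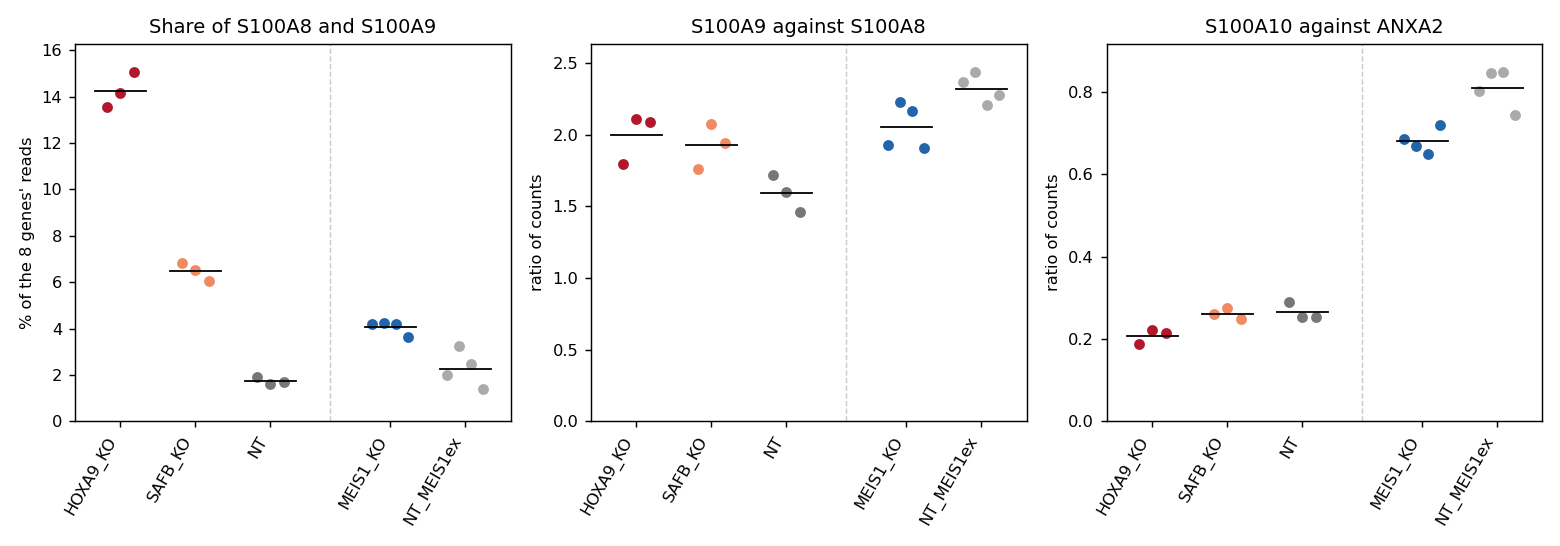
Share of the 8 genes' reads from S100A8 and S100A9 (left), ratio of S100A9 to S100A8 counts (middle) and of S100A10 to ANXA2 counts (right) in each library, with bars for group means and a dashed line between the experiments. The share averaged 14.3% in HOXA9_KO, 6.46% in SAFB_KO and 1.73% in NT, and 4.07% in MEIS1_KO and 2.27% in NT_MEIS1ex.

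Most receptors of extracellular S100 proteins were higher in HOXA9_KO and SAFB_KO, and AGER was lower. Of all genes tested, 27.6% were called higher and 29.9% lower in HOXA9_KO, 20.2% and 15.3% in SAFB_KO, and 4.97% and 3.84% in MEIS1_KO, and the list counts that follow stand against these shares. Of 8 receptor genes, 7 were called higher and 1 lower in HOXA9_KO (median log2 change 0.79, against -0.07 for all genes). In SAFB_KO 6 were called higher and 1 lower (median 0.42, against -0.02), and in MEIS1_KO 3 were called higher and none lower (median 0.14, against 0.0018). TLR4, a receptor of calprotectin, averaged 55.1 CPM in HOXA9_KO and 21.8 CPM in SAFB_KO, against 15.2 CPM in NT, and 15.97 CPM in MEIS1_KO against 10.6 CPM in NT_MEIS1ex. It rose by 1.86 ± 0.06, 0.52 ± 0.06 and 0.59 ± 0.10 on the log2 scale in the 3 knockouts. CD36, a scavenger receptor for lipids, rose by 1.62 ± 0.04 in HOXA9_KO, 0.62 ± 0.04 in SAFB_KO and 0.67 ± 0.09 in MEIS1_KO on the log2 scale. CD33, a sialic acid-binding receptor of myeloid cells, rose by 0.88 ± 0.04, 0.55 ± 0.04 and 0.19 ± 0.06 in the same order. CD68, a macrophage scavenger receptor, rose by 1.404 ± 0.08 in HOXA9_KO and 0.58 ± 0.08 in SAFB_KO and differed by 0.23 ± 0.09 in MEIS1_KO without passing. AGER, named besides the 4 genes with the smallest p in HOXA9_KO, averaged 2.93 CPM in HOXA9_KO and 4.32 CPM in SAFB_KO, against 5.36 CPM in NT. It fell by 0.88 ± 0.14 in HOXA9_KO and, with overlapping libraries, by 0.33 ± 0.13 in SAFB_KO.

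The intracellular partners include the NADPH oxidase, the enzyme of the respiratory burst that calprotectin helps to activate, and its genes moved by different amounts. Of 17 partner genes, 13 were called higher and 2 lower in HOXA9_KO (median 0.52, against -0.07 for all genes and 27.6% called higher), 11 higher and none lower in SAFB_KO (median 0.20, against -0.02 and 20.2%), and 7 higher and 1 lower in MEIS1_KO (median 0.15, against 0.0018 and 4.97%). CYBB, the catalytic subunit, averaged 392 CPM in HOXA9_KO and 137 CPM in SAFB_KO, against 59.9 CPM in NT, and 116 CPM in MEIS1_KO against 69.2 CPM in NT_MEIS1ex. It rose by 2.71 ± 0.04, 1.20 ± 0.03 and 0.74 ± 0.06 on the log2 scale. The cytosolic subunit gene NCF1 rose by 2.48 ± 0.05 in HOXA9_KO, 0.99 ± 0.05 in SAFB_KO and 0.39 ± 0.08 in MEIS1_KO. NCF4, another cytosolic subunit gene, rose by 1.31 ± 0.04 in HOXA9_KO and 0.53 ± 0.04 in SAFB_KO, and differed by 0.16 ± 0.05 in MEIS1_KO without passing. The oxidase genes CYBA and RAC2, added after their values were seen, rose by 0.57 ± 0.04 and 0.42 ± 0.03 in HOXA9_KO and by 0.20 ± 0.04 and 0.20 ± 0.03 in SAFB_KO, and differed by -0.15 ± 0.16 and -0.09 ± 0.05 in MEIS1_KO without passing. ANXA1, whose annexin binds S100A11, rose by 2.05 ± 0.05 in HOXA9_KO, 1.17 ± 0.05 in SAFB_KO and 0.88 ± 0.08 in MEIS1_KO. NCF1 has near-identical pseudogene copies with which reads may have been shared, so its values are uncertain. The partner counts depended on scaling: with nuclear protein-coding reads as the base, 11 were higher and 4 lower in HOXA9_KO, 7 higher and 3 lower in SAFB_KO, and 9 higher and 1 lower in MEIS1_KO.

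Most transcription factors known to act on the calprotectin genes were higher in HOXA9_KO, and 1 was called in MEIS1_KO. Of 10 such genes, 9 were called higher and 1 lower in HOXA9_KO (median 0.99, where 27.6% of all genes were called higher), 6 higher and none lower in SAFB_KO (median 0.30, against 20.2%), and 1 higher and none lower in MEIS1_KO (median 0.03, against 4.97%). SPI1, which encodes PU.1, averaged 178 CPM in HOXA9_KO and 106 CPM in SAFB_KO, against 74.2 CPM in NT, and 221 CPM in MEIS1_KO against 210.1 CPM in NT_MEIS1ex. It rose by 1.27 ± 0.04 in HOXA9_KO and 0.51 ± 0.04 in SAFB_KO, and differed by 0.08 ± 0.07 in MEIS1_KO without passing. CEBPD rose by 1.71 ± 0.07 and 0.65 ± 0.07 in HOXA9_KO and SAFB_KO, and differed by -0.07 ± 0.27 in MEIS1_KO. CEBPA rose by 0.92 ± 0.04 and 0.35 ± 0.04 in the first experiment, and differed by -0.14 ± 0.10 in MEIS1_KO. CEBPB rose by 2.05 ± 0.10 in HOXA9_KO, and differed by 0.16 ± 0.11 in SAFB_KO and by -0.42 ± 0.24 in MEIS1_KO, neither passing. The gene called in MEIS1_KO was KLF4, named after its value was seen, at 0.41 ± 0.08. Scaled to nuclear protein-coding reads, 7 of the 10 were higher and 1 lower in HOXA9_KO, and 5 higher and 2 lower in SAFB_KO.

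**Figure D4:**
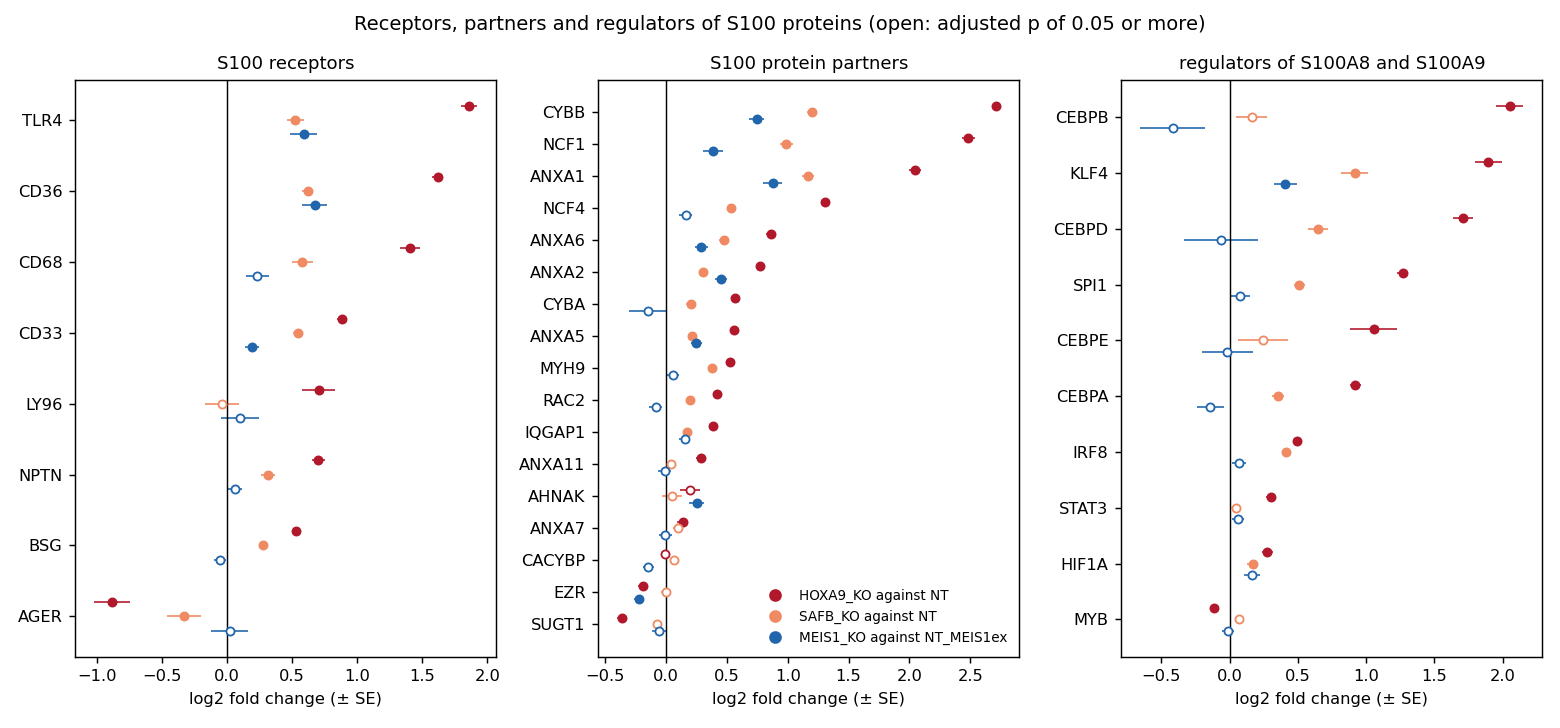
Log2 fold change with its SE of 8 receptor genes, 17 partner genes and 10 regulator genes of S100 proteins in the 3 knockouts, each against its own non-targeting libraries; filled points passed an edgeR adjusted p under 0.05. In HOXA9_KO 7, 13 and 9 genes of the lists were called higher, and in MEIS1_KO 3, 7 and 1.

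Markers of monocytes and granulocytes, summed by library, were higher in each knockout than in its controls, as the calprotectin genes were. Summed over 10 markers, they ranged over 29839 to 32792 CPM in HOXA9_KO and 13149 to 14834 CPM in SAFB_KO, against 4667 to 4786 CPM in NT. They ranged over 7214 to 7612 CPM in MEIS1_KO, against 3466 to 5146 CPM in NT_MEIS1ex, where the second library was the highest, as for S100A8 and S100A9. The first NT_MEIS1ex library was the lowest for the markers, but the last was the lowest for S100A8 and S100A9. Within HOXA9_KO the sums fell over the libraries, at 32792, 31851 and 29839 CPM, while S100A9 rose. Within SAFB_KO the sums rose, at 13149, 13679 and 14834 CPM, while S100A9 fell. LYZ, the lysozyme gene, added after its values were seen, carried most of these sums, and without it they were 1794 to 1807 CPM in HOXA9_KO, 1059 to 1076 CPM in SAFB_KO and 568 to 569.8 CPM in NT, and 797 to 840.2 CPM in MEIS1_KO and 519.5 to 596 CPM in NT_MEIS1ex. All 10 were called higher in HOXA9_KO and in SAFB_KO, and 8 of the 9 tested were called higher in MEIS1_KO, where 27.6%, 20.2% and 4.97% of all genes were. Their median log2 changes were 1.96, 1.15 and 0.74 in the 3 knockouts. CYBB is one of them, and VCAN rose by 1.96 ± 0.03 in HOXA9_KO, 1.52 ± 0.03 in SAFB_KO and 1.02 ± 0.15 in MEIS1_KO. ITGAM, the integrin chain CD11b, rose by 1.96 ± 0.04, 1.10 ± 0.04 and 0.36 ± 0.05, and MNDA, a nuclear antigen of myeloid cells, by 1.51 ± 0.04, 0.33 ± 0.04 and 0.84 ± 0.11. The part of these markers in the S100 changes was not tested. The labelled myeloid cell type carried its markers, with the blast list at 1200.1 to 1216 CPM in HOXA9_KO, 1191 to 1228 CPM in SAFB_KO and 1256 to 1282 CPM in NT, and at 1071 to 1092 CPM in MEIS1_KO and 1016 to 1063 CPM in NT_MEIS1ex. Members of that list moved in opposite directions beneath these sums. Of 7 tested, 5 were called higher and 1 lower in HOXA9_KO, and 4 higher and 2 lower in SAFB_KO. In MEIS1_KO 2 of 6 were called higher and none lower. Of all genes, 27.6%, 20.2% and 4.97% were called higher and 29.9%, 15.3% and 3.84% lower in the 3 knockouts. Scaled to nuclear protein-coding reads, 4 were higher and 1 lower in HOXA9_KO, and 3 higher and 3 lower in SAFB_KO. CD33 and SPI1, whose changes are given above, are on this list. FLT3, a cytokine receptor of early progenitors and blasts, averaged 321 CPM in HOXA9_KO and 547 CPM in SAFB_KO against 675 CPM in NT, and fell by 1.07 ± 0.03 and by 0.30 ± 0.03 on the log2 scale. It averaged 477 CPM in MEIS1_KO against 499 CPM in NT_MEIS1ex and did not pass. MPO, the peroxidase of myeloid granules, averaged 93.6 CPM in HOXA9_KO and 14.9 CPM in SAFB_KO against 16.8 CPM in NT, which gave a log2 difference of 2.48 ± 0.06 in HOXA9_KO and, with overlapping libraries, -0.17 ± 0.06 in SAFB_KO. In MEIS1_KO it rose by 0.58 ± 0.11. CD34 of that list averaged at most 0.0304 CPM in any group. Erythroid and megakaryocyte markers summed to at most 22.8 CPM, lymphoid markers to at most 28.9 CPM and epithelial markers to at most 16.5 CPM in any library, with HBA2, PF4, PPBP, KRT5, IVL, LOR and SPRR1B at 0 in every library.

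The interferon response moved the other way in the first experiment. Its 20 genes summed to 318, 316 and 299 CPM in HOXA9_KO and 508, 466 and 510.4 CPM in SAFB_KO, against 2323, 2275 and 1700.0 CPM in NT. All 20 were called lower in both knockouts, where 29.9% of all genes were called lower in HOXA9_KO and 15.3% in SAFB_KO. All 20 were also separated from NT, against 33.5% and 22.3% of all genes. They summed to 675, 681, 840.5 and 969 CPM in MEIS1_KO, against 462, 576, 639.6 and 628 CPM in NT_MEIS1ex, with 3 genes called higher. IRF7, a regulator of the response, fell by 2.07 ± 0.06 in HOXA9_KO and by 1.64 ± 0.06 in SAFB_KO, and differed by 0.22 ± 0.11 in MEIS1_KO without passing. IFI27 fell by 4.18 ± 0.13 and DDX60 by 2.46 ± 0.06 on the log2 scale in HOXA9_KO. The part of this difference in the S100 changes was not tested.

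The remaining S100 genes were scarce. Of 13, only 4 entered the tests, and together the 13 summed to at most 6.47 CPM in HOXA9_KO, 9.88 CPM in SAFB_KO, 9.49 CPM in NT, 6.66 CPM in MEIS1_KO and 5.51 CPM in NT_MEIS1ex. S100A13, which takes part in the export of proteins that lack a signal sequence, stood at 3.31, 2.64 and 2.89 CPM in HOXA9_KO against 5.36, 5.78 and 4.19 CPM in NT. S100A1, best known from muscle, stood at 1.23, 1.74 and 1.00007 CPM in HOXA9_KO against 1.988, 2.43 and 2.17 CPM in NT. Both lay below NT in every HOXA9_KO library, and S100A13 fell by 0.80 ± 0.14 (edgeR adjusted p = 2.3e-06) and S100A1 by 0.73 ± 0.21 (edgeR adjusted p = 0.0022). In SAFB_KO neither passed, at -0.08 ± 0.13 and -0.0035 ± 0.19, nor in MEIS1_KO, at 0.29 ± 0.16 and -0.14 ± 0.18. The genes overlap on opposite strands, over 10.6% of S100A13 and 18.3% of S100A1 exons, and S100A13 shares 24.2% with another gene on its own strand, so reads between them may be shared or lost. The other 2 tested genes, below 1 CPM on average in each group, were not called in any knockout.

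Patterns over the 17 libraries were compared by the root mean square difference of log2 CPM, each taken relative to the mean of the own experiment's controls, over 12087 genes, as a description with no test. Nearest to S100A8 was S100A9 at 0.22, ahead of ADAMDEC1, a macrophage metalloprotease gene, at 0.36 and the scavenger receptor gene MARCO at 0.37. Nearest to S100A9 was S100A8, ahead of FCAR, the Fc receptor for IgA, at 0.35 and SCG2 at 0.44. S100A6 ran closest to the actin crosslinker gene FLNA (0.07), SAMHD1 (0.08) and CD244 (0.08). S100A4 ran closest to ANXA5 (0.07), ZNF641 (0.08) and NID1 (0.08), and S100A11 to LITAF (0.05), LTA4H (0.06) and EMC3 (0.06). S100A10 ran closest to KIDINS220 (0.06), TMA7 (0.07) and RCOR1 (0.07). S100P ran closest to CST7 at 0.30, KCNG1 at 0.34 and KDM7A at 0.34. CST7, which encodes cystatin F, averaged 9.53 CPM in MEIS1_KO against 18.1 CPM in NT_MEIS1ex. Between members, S100A4 and S100A10 differed by 0.15 and S100A8 and S100P by 2.15 on this measure.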

How the data were processed

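RNA had been extracted as total RNA, depleted of ribosomal RNA and made into strand-marking libraries read in pairs of 150 bases, per the labels' protocols. Per the submitters' processing notes the tools were Trim Galore, STAR 2.7.10a, HTSeq 1.99.2 and bedtools with genome hg38; no source used here gives the strand setting or annotation release. The values the authors deposited are raw counts per gene in 17 libraries. Names and exon lengths came from GENCODE 29, which held 55109 of the 58278 identifiers. Levels and tests here came from edgeR 4.0.16 (R 4.3.3): filterByExpr (10 counts, 15 in total), TMM, the robust quasi-likelihood F test and Benjamini-Hochberg adjustment over all tested genes, with a call at an adjusted p under 0.05. One fit held 9 libraries, another 8 and the last all 17. The SE is the log2 change divided by the root of F. Ratios used 0.5 added counts and exact permutation tests. Named were all members, other S100 genes of at least 1 CPM on average in a group, of each list 4 genes or fewer with the smallest p in HOXA9_KO, and the 3 nearest genes per member among genes of at least 2 CPM in a group. The members and lists were chosen with earlier results of these data known. One gene of the partner list is not reported here and was left out of its counts. Alternatives were RLE factors, scaling to nuclear protein-coding reads, no filter, a mean of 2 CPM, DESeq2 1.42.0, limma-voom 3.58.1, a replicate term, other libraries in the fit, 5 added counts in ratios and leaving out each library. The fits were also run on counts simulated from their own model, which cannot test the choice of scaling.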

Additional observations from a re-analysis of the deposited data

Results flagged for a closer look

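The share of the 8 genes' reads that came from S100A8 and S100A9 was 3.65% in MEIS1_KO library 4, far from the 4.19, 4.25 and 4.195% of the other MEIS1_KO libraries. Its 95% Wilson interval, for counting error only, was 3.39 to 3.94%. The library still lay above the highest NT_MEIS1ex share of 3.23%. Such a gap was looked for in 22 sets of 4 libraries, and chance gives about 1 in 20.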

How the results depend on the processing

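Of 923 values for 47 results on single members, 879 kept their direction and side of the threshold, 29 lost the threshold, 10 gained it and 5 changed sign, all 5 under scaling to nuclear protein-coding reads: S100P in HOXA9_KO (-0.051), S100A4 (0.030) and S100A10 (0.067) in MEIS1_KO minus HOXA9_KO, and S100A10 (0.091) and S100A11 (0.033) in MEIS1_KO minus SAFB_KO; 5 members were then called in MEIS1_KO minus HOXA9_KO. Leaving out each library gave 7 called members in HOXA9_KO, 7 to 8 in SAFB_KO, 6 to 8 in HOXA9_KO against SAFB_KO, 4 to 6 in MEIS1_KO, 7 to 8 in MEIS1_KO minus HOXA9_KO and 3 in MEIS1_KO minus SAFB_KO. The S100A10 to ANXA2 log2 difference ranged over -0.29 to -0.23 in MEIS1_KO, where p rose to 0.0571 with 7 libraries, and over -0.062 to 0.040 in SAFB_KO, turning to 0.013 without SAFB_KO library 3 and to 0.040 without the first NT library. The S100A9 to S100A8 difference ranged over 0.26 to 0.40 in HOXA9_KO, 0.21 to 0.33 in SAFB_KO and -0.22 to -0.14 in MEIS1_KO. The cause of these changes was not tested.

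The deviations of same-numbered libraries correlated at r -0.28 to 0.09 over 13 pairs, which cannot show whether the numbers pair libraries. With the replicate number as a block, 7, 7, 8 and 6 members were called in HOXA9_KO, SAFB_KO, HOXA9_KO against SAFB_KO and MEIS1_KO, and 8 and 3 in the tests of differences; the S100A10 to ANXA2 difference in MEIS1_KO stayed at -0.25 with a permutation p of 0.125. With 3 or 4 libraries a group, S100A12 is limited by its few reads, and the log2 ratios by the smallest p the design allows.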

Other observations

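Between S100A10 and S100A1 (chromosome 1, 151982915 to 153632039), a stretch known for genes of the skin barrier, the annotation lists 85 genes, 69 of them outside the S100 family. In the first experiment 3 of the 69 entered the tests, and they are named after their values were seen. FLG, which encodes filaggrin, had 17, 41 and 54 reads in HOXA9_KO and 12, 11 and 9 reads in SAFB_KO, against 12, 6 and 4 reads in NT. FLG-AS1, on the other strand, had 19, 21 and 22 reads in HOXA9_KO and 4, 12 and 4 reads in SAFB_KO, against 5, 4 and 4 reads in NT. No NT library reached the filter on low counts for either gene, so both entered the test through the knockout libraries and no test is given there. In the MEIS1 experiment FLG had 22, 20, 15 and 26 reads in MEIS1_KO against 10, 5, 11 and 13 reads in NT_MEIS1ex. All 4 MEIS1_KO libraries but only 2 of 4 NT_MEIS1ex libraries reached that filter, so no test is given for FLG in this experiment either. FLG and FLG-AS1 averaged at most 1.10 and 0.626 CPM in any group. An unnamed antisense gene beside S100A10 did not pass in HOXA9_KO (-0.11 ± 0.53) or in SAFB_KO (0.32 ± 0.50). The pseudogenes S100A11P1 and S100A11P2 had at most 2 and 1 reads in any library.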
